A study of Rattus norvegicus with 2 samples.

Results

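The genes described here encode receptors that set the tone of vascular and erectile smooth muscle: the adrenergic receptors Adra1a, Adra1b, Adra1d and Adra2a, the muscarinic receptors Chrm2 and Chrm3, the angiotensin II receptor Agtr1a and the kinin receptors Bdkrb1 and Bdkrb2. They were chosen by name, as rows of the deposited annotated table that carry exactly that gene symbol. Of the 9 names, 8 were found, out of 18489 genes in the table, and each was measured by 1 probe set. Adra2a was not analysed here.

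The RNA came from skeletal muscle stem cells (muscle-derived stem cells, MDSC) grown in culture from male obese Zucker rats homozygous for the fatty allele (fa/fa), which impairs the leptin receptor and makes the animals obese and insulin resistant. One sample was labelled early diabetes and the other late diabetes, and both carried the fa/fa genotype, so no lean animal or cell stood as a control. The assay was the Affymetrix Rat Gene 1.0 ST array, with 1 array for each sample. The growth protocol gives 20% serum and glucose at 5.6 mM or 22 mM for both samples alike, without saying which level an array had, and the labels give neither the age of the rats nor how many animals stood behind an array. With 1 array per group there was no estimate of the spread between cultures, no p-value and no SD, so all values describe these 2 arrays. The work sets cells of early against cells of late diabetes.

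Alpha-1 adrenergic receptors answer noradrenaline through Gq proteins, phospholipase C and calcium, and their action on cavernous smooth muscle keeps the penis flaccid. The angiotensin II type 1 receptor and the muscarinic M3 receptor also signal through Gq, while the M2 receptor couples to Gi proteins, which inhibit adenylyl cyclase. Of the kinin receptors, B2 is present in many resting tissues and binds bradykinin, whereas B1 is low in most resting tissues, is known to be induced by injury and inflammation, and binds kinins that have lost their last arginine.

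A gene was compared between arrays when its higher value was no lower than the median over all genes, a normalized intensity of 261 (log2 8.03), here called the floor. The background was taken as the level under which 95% of the values of 1199 olfactory receptor genes lay, an intensity of 112 (log2 6.81). That these genes are silent in MDSC was an assumption. Levels of different genes are not set against each other, since probe sets bind with different strength.

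Bdkrb1 was far higher in the late array, and Bdkrb2 was moderately higher. The other 6 receptor genes were under the floor in both arrays. Of these, Adra1b, Adra1d, Chrm2 and Chrm3 lay within 1.5-fold between the arrays. Adra1a and Agtr1a were below background in both, so no fold is given for them. So 2 of the 8 receptor genes could be compared, 1 was higher in the late array by 2-fold or more and 0 were lower by as much. Among all 9738 compared genes, 5.84% were higher by 2-fold or more and 3.11% lower, 8.95% in either direction. Both compared receptor genes passed the floor through their late value alone, so the filter fixed which way they could differ, and nothing is read from this count against those percentages.

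Because Bdkrb1 carries the main difference, its promoter is shown first, from 250 bases before to 50 bases after the annotated start (RefSeq, GRCr8, chr6:130275436-130275735, plus strand). Beside it stands the promoter of Adra1b, a dim receptor gene whose promoter has the highest CG count among the 7 members listed in the promoter table (chr10:28814298-28814597, minus strand). Capitals mark CG dinucleotides, the sites of DNA methylation, and both sequences run 5′ to 3′.
Bdkrb1: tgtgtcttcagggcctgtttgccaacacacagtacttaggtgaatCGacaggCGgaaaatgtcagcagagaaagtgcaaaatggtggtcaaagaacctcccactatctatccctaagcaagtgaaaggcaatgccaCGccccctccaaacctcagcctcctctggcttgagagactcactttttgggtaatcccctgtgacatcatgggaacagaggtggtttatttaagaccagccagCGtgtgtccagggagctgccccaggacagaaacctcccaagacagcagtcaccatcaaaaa
Adra1b: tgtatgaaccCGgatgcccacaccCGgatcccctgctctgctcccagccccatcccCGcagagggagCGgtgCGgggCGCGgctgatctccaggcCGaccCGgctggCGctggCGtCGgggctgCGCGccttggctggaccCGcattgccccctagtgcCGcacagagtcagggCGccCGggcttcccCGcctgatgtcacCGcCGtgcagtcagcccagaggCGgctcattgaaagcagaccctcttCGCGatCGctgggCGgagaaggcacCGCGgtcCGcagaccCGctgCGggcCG
The Bdkrb1 window held 4 CG dinucleotides at a GC content of 50.7%, against medians of 7 and 51.7% over 33469 RefSeq promoters of the same length. The Adra1b window held 32 at 72%. Chrm3 had 28, Adra2a 25, Adra1d 22, Agtr1a 11 and Chrm2 10. The arrays carry no measurement of methylation, so these counts describe the sequence only.

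A set of 6 motifs was searched on both strands of these windows, as letters or by name. Bdkrb2 and Adra1a had no promoter entry, so neither was searched. The TATA box (TATAAA) occurred in 14.2% of all promoters and, among the members, in Agtr1a alone, where it began 45 bases before the start. The E-box (CANNTG) occurred in 72.1% of all promoters and, among the members, 4 times in Chrm3, 2 times in Agtr1a and once each in Adra2a and Bdkrb1. In Bdkrb1 it began 133 bases before the start. The cyclic AMP response element (TGACGTCA, 1.83% of all promoters), the AP-1 site (TGANTCA, 7.33%), the NF-kB site (5.02%) and the CArG box of smooth muscle genes (1.64%) were in none of the 7 windows. These letters being absent from a window says nothing of the factors themselves.

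Among the kinin receptors, Bdkrb1 had an early intensity of 88.0 and a late intensity of 862 (log2 6.46 and 9.75). Its early value lay below background, above 91.0% of the olfactory receptor values, and its late value lay above every one of them. The measured late minus early difference of Bdkrb1 was 3.29 on the log2 scale, and against the background level its late value was at least 7.69-fold higher. Since the early value lay below background, the bound and not the measured difference is the result.

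With the background set at the 99th percentile of olfactory receptor values in place of the 95th, the bound for Bdkrb1 was at least 4.63-fold. The only error that these arrays hold is that between probe sets of the same gene. Over 760 genes with 2 probe sets, the within-gene SD of the log2 difference was 0.30, so the bound for Bdkrb1 was larger than this probe error. That SD does not cover the spread between cultures or animals.

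Bdkrb2, the bradykinin B2 receptor gene, had an early intensity of 160 and a late intensity of 265 (log2 7.32 and 8.05). Both values were above background, and the late value passed the floor by a narrow margin. Bdkrb2 was 1.66-fold higher in the late array, a log2 difference of 0.73, which 9.23% of the compared genes reached or exceeded. Of the compared genes, 12.1% were higher by 1.5-fold or more and 6.48% lower, 18.6% in either direction, so a difference of that size was common between these arrays. Both kinin receptors were thus higher in the late array, with B1 the one that crossed from below to above this background. With the background at the 99th percentile of olfactory receptor values (intensity 186), the early Bdkrb2 value lay below it too. The late value of Bdkrb2 was then at least 1.42-fold higher.

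**Figure D1:**
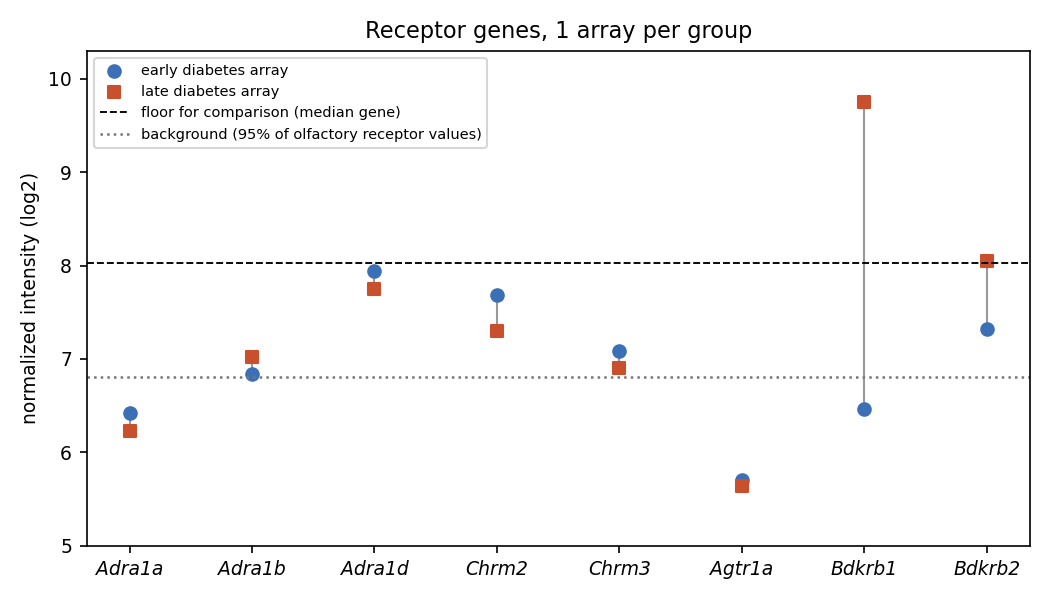
Normalized intensity (log2, vertical axis) of the 8 receptor genes in the early diabetes array (circles) and the late diabetes array (squares), with 1 array per group and so no error bars. The dashed line is the floor (8.03) and the dotted line the background (6.81). Bdkrb1 goes from 6.46 to 9.75, Bdkrb2 just passes the floor, and the other 6 stay under it.

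The alpha-1 adrenergic receptors were dim in both arrays. Adra1a, the 1A subtype, had an early intensity of 85.6 and a late intensity of 74.9, both below background, and no fold is given for it. Adra1b, the 1B subtype, had 114 and 130, just above background. Adra1d, the 1D subtype, had 247 early and 215 late, above background and under the floor. The late minus early differences were 0.18 for Adra1b and -0.20 for Adra1d on the log2 scale, each smaller than the probe error.

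The muscarinic receptors also stayed under the floor. Chrm2, the M2 receptor gene, had an early intensity of 205 and a late intensity of 157, a log2 difference of -0.39. This was the lowest difference of the 8 receptor genes. In size it was somewhat larger than the within-gene SD of 0.30. It was smaller than 0.68, the 95th percentile of the gap between the 2 probe sets of a gene. Chrm3, the M3 receptor gene, had 135 and 120, a difference of -0.18.

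Agtr1a, the angiotensin II type 1a receptor gene, had an early intensity of 52.2 and a late intensity of 49.7, below background in both, with more than 70.0% of olfactory receptor values under it. Its paralog Agtr1b, whose sequence is so similar that probe sets can share signal, lay below background as well (72.3 and 69.6). Neither gene of the type 1 receptor was therefore detected above background in either array.

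The differences of these receptor genes were set beside those of all dim genes. Over the 8751 genes under the floor, the middle 50% of the late minus early differences ran from -0.24 to 0.02, with a median of -0.11, and 1.53% of them differed by 2-fold or more. Chrm2, at percentile 8.0 of these genes, lay below that middle range and Adra1b, at percentile 88.9, above it. Adra1d and Chrm3, at percentiles 32.8 and 35.7, lay inside it. Adra1b, Adra1d, Chrm2 and Chrm3 kept their sign under quantile normalization, median centring and removal of a lowess trend. The choice of the brightest probe set and the pseudocount could not change the sign of a gene with 1 probe set. Signs are given as measured, and none is read as a change of the 6 dim receptor genes, since none reached the floor.

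**Figure D2:**
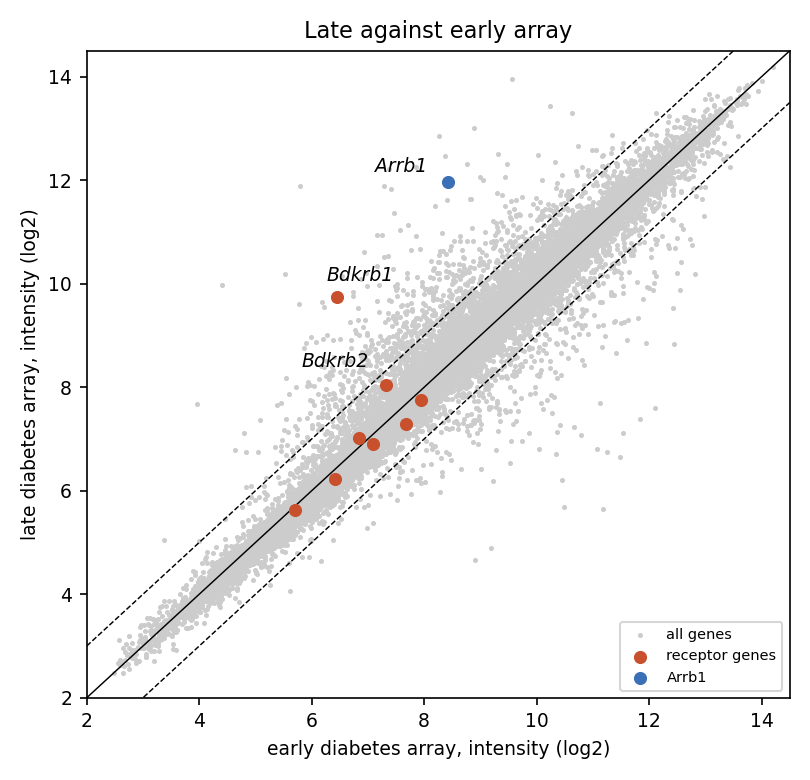
Log2 intensity of all genes in the late array (vertical) against the early array (horizontal), with the receptor genes in red and Arrb1 in blue. The solid line marks equal values and the dashed lines 2-fold differences. Bdkrb1 and Arrb1 lie well above the upper dashed line, while the other receptor genes lie between the dashed lines.

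Further receptors of the adrenergic, muscarinic and angiotensin families had slightly lower values in the late array, most of them under the floor. Of 10 in the table, 2 were compared, and 0 of these differed by 1.5-fold or more, beside 18.6% of all compared genes. Adrb1, the beta-1 adrenergic receptor gene, had an early intensity of 263 and a late intensity of 220. Chrm1, the M1 receptor gene, had 301 and 264. The other 8 were Adra2b, Adra2c, Adrb3, Chrm4, Chrm5, Agtr1b, Agtr2 and Mas1, all under the floor. The measured late value was the lower one in 10 of 10, with differences from -0.68 for Adrb3 to -0.05 for Agtr1b. Chrm5, Agtr1b, Agtr2 and Mas1 were below background in both arrays, so no fold is given for them. Adrb3 and Chrm4 were below it in the late array, and for Adrb3 the bound was at least 1.30-fold lower. The median of -0.15 over these 10 was close to the -0.11 of genes under the floor. A lower late value was thus common among dim genes, and nothing is read from the 10 of 10.

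Genes that make or break down the ligands were mostly dim, and those farthest apart were surface peptidases. Of 25 in the table, 6 were compared. Of these, 2 were higher in the late array by 2-fold or more and 0 were lower by as much. Over all compared genes, 5.84% were higher and 3.11% lower by 2-fold or more. Anpep, aminopeptidase N, which trims angiotensin III, was 2.92-fold higher (log2 7.32 to 8.87). It passed the floor through its late value alone. Enpep, aminopeptidase A, which cuts angiotensin II to angiotensin III, was 2.27-fold higher (10.25 to 11.43). Mme, the peptidase neprilysin, which degrades bradykinin, was 1.55-fold lower (11.28 to 10.64).

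Cpm, carboxypeptidase M, which removes the last arginine of kinins and so makes ligands of B1, had a log2 level of 8.05 early and 8.23 late, a difference within the probe error. The kininogen gene Kng1 (5.35 and 5.83) and Ace, the angiotensin-converting enzyme gene (6.54 and 6.72), were below background in both arrays. Cpm, Kng1 and Ace were named after their values were seen.

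The G protein alpha subunits that could be compared were all within 2-fold. Of 13 in the table, 8 were compared and 1 differed by 1.5-fold or more, beside 18.6% of all compared genes. This was Gnai1, a Gi subunit that inhibits adenylyl cyclase, 1.75-fold higher in the late array (10.35 to 11.16). The Gq subunit genes Gnaq (11.20 and 11.39) and Gna11 (11.13 and 11.37), which carry the signal of B1, B2, alpha-1, M3 and AT1 receptors, were well above the floor in both arrays. Gnaq and Gna11 were named after their values were seen.

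Downstream of Gq, 14 of 23 effector genes were compared. Of these, 1 was lower in the late array by 2-fold or more and 0 were higher by as much. The shares over all compared genes were 3.11% lower and 5.84% higher. Plcb4, a phospholipase C beta, was 2.16-fold lower (11.25 to 10.14). Itpr1, the calcium release channel opened by IP3, was 1.75-fold lower, and its probe sets gave differences of -1.08 and -0.54. Plce1, a phospholipase C that answers small GTPases, was 1.56-fold lower (8.14 to 7.51). It passed the floor through its early value alone, so the filter fixed which way it could differ. The median of the 14 compared genes was -0.03, against 0.06 over all compared genes.

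Adenylyl cyclase and protein kinase A genes were the list with the most genes 2-fold higher. Of 13 in the table, 10 were compared, and 8 of these had the higher value in the late array. By 2-fold or more, 4 were higher and 0 lower, beside 5.84% and 3.11% of all compared genes. The median of the 10 compared genes was 0.91, against 0.06 over all compared genes. Adcy4, an adenylyl cyclase activated by G protein beta-gamma subunits, was 5.31-fold higher (7.50 to 9.91). Adcy5, an adenylyl cyclase inhibited by Gi and by calcium, was 3.29-fold higher (8.41 to 10.13). The regulatory subunits of protein kinase A followed, Prkar2b at 2.79-fold (7.86 to 9.34) and Prkar2a at 2.05-fold higher (10.63 to 11.67). Adcy4 and Prkar2b passed the floor through their late value alone, so the filter fixed which way they could differ. The counts and the median of this list are therefore descriptive only.

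Among proteins that end receptor signalling, Arrb1 stood apart. It encodes beta-arrestin 1, which binds phosphorylated receptors and uncouples them from G proteins, and its intensity was 343 early and 3985 late. Arrb1 was 11.6-fold higher in the late array (log2 8.42 to 11.96), with both values above the floor. Of 26 genes in this list, 12 were compared. Arrb1 was the 1 that differed by 2-fold or more, beside 8.95% of all compared genes. The receptor kinase genes Grk6 (1.89-fold) and Grk4 (1.68-fold) and the G protein regulator gene Rgs12 (1.69-fold) were also higher. Grk4 and Rgs12 passed the floor through their late value alone, so the filter fixed which way they could differ.

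Over the pathway lists together, these further receptors included, 52 of 110 genes were compared, 7 were higher by 2-fold or more and 1 was lower by as much. That is 15.4% in either direction beside the 8.95% of all compared genes. Adcy4, Prkar2b and Anpep passed the floor through their late value alone, so the filter fixed which way they could differ. The lists were also chosen with earlier results of these data known, and nothing is read from this share.

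**Figure D3:**
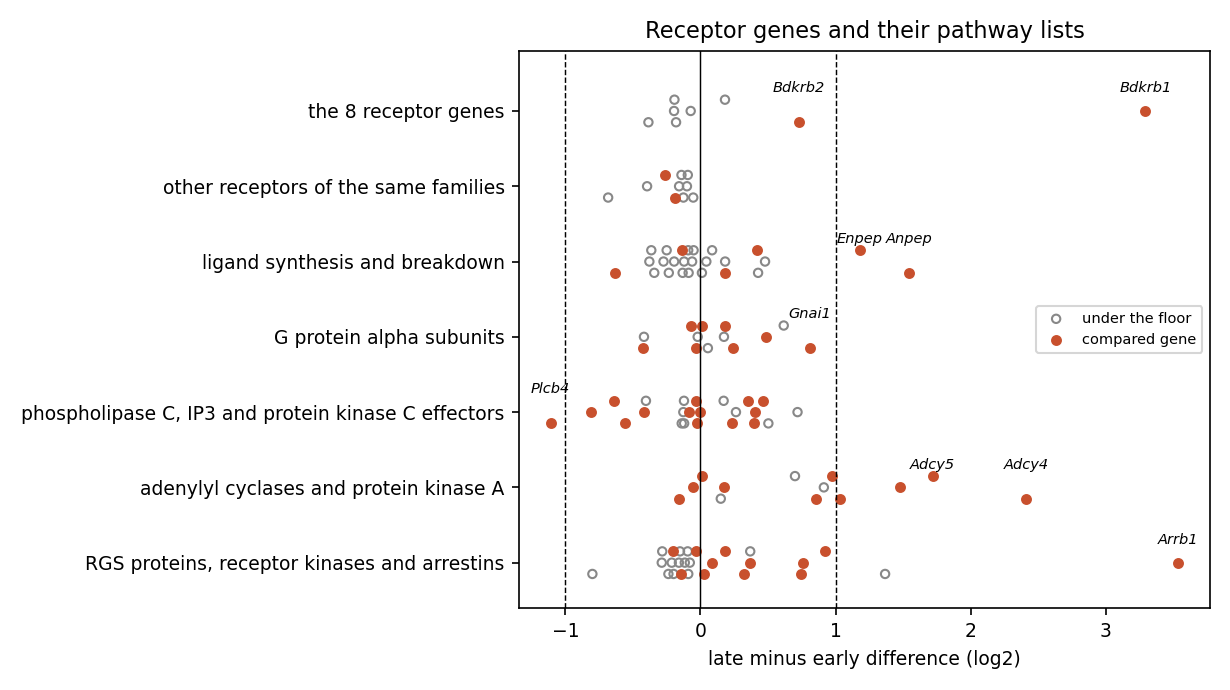
Late minus early difference (log2, horizontal axis) of each gene in the receptor list and the 6 pathway lists, with filled points for compared genes and open points for genes under the floor. Dashed lines mark 2-fold. Arrb1 at 3.54, Bdkrb1 at a measured 3.29 from an early value below background, and Adcy4 at 2.41 lie farthest to the right, and Plcb4 at -1.11 farthest to the left.

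For each compared receptor gene, the 3 genes with the nearest pair of log2 values were listed, leaving out placeholder symbols. With 2 arrays this likeness rests on 2 numbers per gene from probe sets that bind with different strength, so it is a list and no ranking of levels. Nearest to Bdkrb1 were S100a5, a calcium-binding protein gene, Plau, the urokinase gene, and Nqo2, a quinone reductase gene. The early values of these 3 genes and of Bdkrb1 all lay below background, so no distance is read from them. Nearest to Bdkrb2 were Plekhg4 (0.052), Depdc1b (0.11) and Hirip3 (0.13).

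The labelled cell type was checked against marker lists. Of 9 myoblast and satellite cell markers, 2 were compared, Ncam1 (log2 11.98 and 12.05) and Des (7.61 and 8.28), while Pax7, Myf5, Myod1 and Myog were under the floor in both arrays. The brightest fibroblast markers, Col1a1 and Thy1, and the brightest smooth muscle markers, Tagln and Cnn1, were above log2 12 in both arrays. Other markers of these lists were dim, with Lum and Synpo2 below background in both arrays and Dcn under the floor. Among 7 pericyte markers, 4 were compared, while Rgs5 and Kcnj8 were under the floor and Abcc9 below background in both arrays. Rgs5, Kcnj8 and Abcc9 were named after their values were seen. The summed intensity of 8 smooth muscle markers was 30852 early and 24215 late, and that of 7 pericyte markers, Pdgfrb and Mcam the brightest, was 14297 and 7136. That of 8 leukocyte markers was 993 and 1571, with Cd14 (8.81 and 9.57) and Cd68 (6.77 and 8.12) the brightest in the late array and Ptprc, the pan-leukocyte gene, below background in both. That of 9 myoblast and satellite cell markers was 5156 and 5413, and that of 7 fibroblast markers 42028 and 31157. That of 7 endothelial markers was 812 and 815, with none compared, and that of 9 nerve and Schwann cell markers, led by Uchl1 and Tubb3, was 7677 and 8730. The smooth muscle, pericyte and fibroblast sums were lower and the leukocyte sum higher in the late array, and their part in the difference of Bdkrb1 was not tested. In such bulk RNA, fewer cells of a type and less RNA per cell cannot be told apart.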

How the data were processed

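Normalized linear intensities were deposited by the authors for 2 Affymetrix Rat Gene 1.0 ST arrays, 1 for early and 1 for late diabetes, in 2 tables that held equal values for all 29214 probe sets (within a relative 1e-08). How the authors corrected, summarised and normalized the arrays is not given in the sources used here. The deposited values are linear, so log2 was taken with no pseudocount. Probe sets naming 1 gene (20164) were averaged per gene, which left 18489 genes. Probe sets naming several genes (328), none (8696) or a symbol damaged by a spreadsheet (26) were left out.

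A gene was compared when its brighter value reached the 50th percentile of all gene values (log2 8.03). Background was the 95th percentile of 1199 genes whose symbols start with Olr and a number, Olr1, the oxidized LDL receptor gene, excepted. Where the dimmer value lay under it, the fold is a lower bound ("at least"), and where both did, none is given. No test was made, since each group had 1 array, and the number of arrays limits the precision. The difference is late minus early throughout.

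The members and lists were chosen with earlier results of these data known. Named were all members, up to 4 genes in each direction at least 1.5-fold apart in each pathway list, further receptors of the families, the 3 nearest genes of each compared member at least 1.5-fold apart, and the 2 brightest markers of each set; other names are marked, some items are not reported here, and Pax7, Myf5, Myod1, Myog, Lum, Dcn, Synpo2 and Ptprc were added as defining markers. Alternatives were a lowess trend removed (span 0.3), quantile normalization, median centring, the brightest probe set, a pseudocount of 16, other filters and other folds. The calculations were tested on simulated data. Symbols of all 8 members were current in RefSeq, and promoter sequences came from RefSeq (GRCr8), with 7 of the 9 names listed, Adra2a among them. Python 3.11.15, numpy 2.4.6, pandas 2.3.3, statsmodels 0.14.6 and matplotlib 3.10.9 were used.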

Additional observations from a re-analysis of the deposited data

How the results depend on the processing

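The late minus early difference of Bdkrb2 lay between 0.66 and 0.80 over the 5 alternatives of scaling, probe set choice and pseudocount. That of Bdkrb1 was measured at 3.08 to 3.32, but its early value lay below background. Its bound moved from 7.69-fold to 4.63-fold with the 99th percentile as background. Both genes had 1 probe set, so the choice of the brightest probe set could not move either difference. Bdkrb2 lay so near the floor that it fell under it with median centring and with the brightest probe set, where Bdkrb1 alone was compared. The 75th percentile filter left none of the receptor genes, so 0 were at least 2-fold higher. With a 1.5-fold threshold 2 were higher. In the pathway lists, the count of genes higher in the late array was 13 at 1.5-fold and 3 at 3-fold, in place of 7. The count of lower genes was 2 with the brightest probe set, 4 at 1.5-fold and 0 at 3-fold, in place of 1. The background was log2 7.54 at the 99th percentile of olfactory receptor genes and 5.09 at their median, in place of 6.81. At their median, Bdkrb1 was above background in both arrays and 9.79-fold higher. At the 99th percentile, the early value of Bdkrb2 lay below background, and its fold became a bound of at least 1.42. The filter and threshold changes follow from how those alternatives are built. With the brightest probe set, Itpr1 took the difference of its brighter probe set (-1.08) in place of the mean (-0.81). No paired analysis was possible because each group had 1 array. Signal near background limits what can be said of the 6 dim receptor genes, and with 1 array per group no result has a replicate check.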

Other observations

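Bdkrb2 and Bdkrb1 are neighbouring protein-coding genes on rat chromosome 6 in RefSeq (GRCr8), and the genes around them were read after their values were seen. Beyond Bdkrb1, the autophagy gene Atg2b (named RGD1304878 in the deposited table) had log2 levels of 9.25 early and 9.50 late, and Gskip (RGD1308470), which encodes a protein that binds glycogen synthase kinase 3 beta, at 9.68 and 9.89. Papola, a poly(A) polymerase gene, was at 11.64 and 11.97. These 3 compared neighbours differed by 0.25, 0.21 and 0.33 on the log2 scale, beside 0.73 for Bdkrb2 and at least 7.69-fold for Bdkrb1. Ak7 and Tcl1a, also near, were below background in both arrays.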
